A study of Mus musculus with 4 samples.

Results

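The chromatin regions described here are the 131 accessible sites, of 189598 called by the authors, whose accessibility in white adipocyte nuclei was higher after 7 days of cold than at room temperature. They were chosen by their measured values. The nuclei annotated as white adipocytes were pooled per group, the nuclei with reads in a site (its entries) were divided by all entries of the pool and multiplied by 1000000 (CPM), and a site was taken when it reached at least 20 CPM in day7C and at least 2 times its level in day0RT. Of 11901 sites with at least 20 CPM in day7C, 131 met the fold, and 161 sites went the other way by the same limits. The difference between day7C and day0RT in white adipocytes is therefore a description of how these sites were picked, with no test.

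Inguinal white adipose tissue came from 8-week-old male C57BL/6 mice, which carried no transgene in the labels, and nuclei of the whole tissue were profiled by single-nucleus ATAC-seq, which marks DNA that is open to a transposase. The 7 groups held 3 mice each: untreated mice at room temperature (22 °C, day0RT), mice kept in the cold (6.5 °C in the labels) for 1, 3 or 7 days (day1C, day3C, day7C), and mice kept at room temperature and treated with CL-316,243 (CL), an agonist of the beta-adrenergic receptor of adipocytes, at 1 mg/kg for 1, 3 or 7 days (day1CL, day3CL, day7CL). The mouse, group and cell type of each of the 32552 nuclei are those of the annotation the authors deposited, since the deposited libraries were sequencing lanes that each held all groups. White adipocytes made up 5935 nuclei (18.2%) and beige adipocytes 1069.

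Depth was uneven. The white pools held from 1659730 entries (day1CL, 645 nuclei) to 6004549 entries (day3CL, 1383 nuclei), and a single mouse gave 85.3% of the day1CL entries, 67.7% of those of day3C and 56.5% of those of day3CL. The shallowest white library, a day1CL mouse, had 23 nuclei, so that 1 entry equalled 22.6 CPM there. In the white pools none of the 8 adipocyte markers was at 0, and their summed level was 1915 to 2397 CPM in the day0RT mice and 1770 to 1961 CPM in the day7C mice. Summed markers of lymphocytes (10 genes) were 169 to 207 and 149 to 166 CPM in those groups, of myeloid cells (9 genes, Lyz2 at 0 in day7C) 138 to 186 and 141 to 165 CPM, of progenitors (6 genes) 91.7 to 130 and 86.1 to 98.4 CPM, of endothelium (6 genes) 109 to 174 and 121 to 136 CPM, and of muscle (6 genes) 153 to 171 and 157 to 179 CPM. The 8 beige markers summed to 564 to 695 CPM in day0RT and 634 to 748 CPM in day7C within white nuclei, and their part in the values below was not tested. Of the white nuclei, 1703 carried a barcode string that also occurred in another mouse.

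White adipocytes store triglyceride and release fatty acids when noradrenaline from sympathetic nerves, or a drug such as CL, acts on them. In the cold, inguinal fat also makes new fatty acids from glucose and acetate, a pathway called de novo lipogenesis: citrate leaves the mitochondrion, Acly splits it into acetyl-CoA, Fasn joins acetyl units into palmitate, and Elovl6 lengthens the chain. Sites far from gene starts that open in a tissue are often enhancers, which are bound by the factors active in the cell.

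Several genes of that pathway had a site among the 131. The largest ratio of all 131 was in an intron of Acly, the site with the most entries in day7C lay across the end of Fasn, and others lay at the promoter and in an intron of Elovl6 and near Srebf1, the transcription factor gene that switches on lipogenic enzymes. Below are the central 300 bases of sites on which the results turn (mm10, plus strand), namely 3 at lipogenic genes, 2 at genes that feed carbon into the pathway, 1 at the glycogen phosphorylase gene Pygl, and 1 that had the smallest p among the members in beige adipocytes. Capitals mark matches to an E-box (CACGTG), to the C/EBP motif (TTGCNNAA), to the STAT motif (TTCNNNGAA) or to the core motif of nuclear receptors (AGGTCA) on either strand.

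Acly intron, chr11:100505478-100505777: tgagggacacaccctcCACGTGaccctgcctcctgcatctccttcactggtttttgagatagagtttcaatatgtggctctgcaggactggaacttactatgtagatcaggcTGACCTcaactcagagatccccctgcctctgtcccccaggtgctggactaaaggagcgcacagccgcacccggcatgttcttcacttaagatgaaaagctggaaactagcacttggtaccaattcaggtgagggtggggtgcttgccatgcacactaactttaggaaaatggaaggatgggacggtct
Elovl6 intron, chr3:129591661-129591960: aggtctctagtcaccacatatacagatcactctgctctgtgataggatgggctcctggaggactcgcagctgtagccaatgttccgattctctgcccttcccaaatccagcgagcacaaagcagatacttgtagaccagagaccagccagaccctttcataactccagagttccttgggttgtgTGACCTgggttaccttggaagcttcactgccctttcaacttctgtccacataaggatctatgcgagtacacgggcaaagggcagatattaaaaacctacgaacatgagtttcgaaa
downstream of Fasn, chr11:120804707-120805006: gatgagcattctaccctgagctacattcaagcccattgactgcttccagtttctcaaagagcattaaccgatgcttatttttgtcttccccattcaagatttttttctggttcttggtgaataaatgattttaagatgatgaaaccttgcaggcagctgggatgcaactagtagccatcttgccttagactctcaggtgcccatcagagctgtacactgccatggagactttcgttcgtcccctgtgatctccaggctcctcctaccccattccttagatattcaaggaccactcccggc
Tkt intron, chr14:30553266-30553565: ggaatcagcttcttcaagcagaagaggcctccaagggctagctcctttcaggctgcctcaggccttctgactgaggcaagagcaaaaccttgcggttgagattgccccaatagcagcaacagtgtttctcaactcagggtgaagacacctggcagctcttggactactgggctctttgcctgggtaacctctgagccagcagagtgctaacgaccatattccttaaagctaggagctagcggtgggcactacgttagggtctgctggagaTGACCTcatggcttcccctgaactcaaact
upstream of Pdha1, chrX:160147289-160147588: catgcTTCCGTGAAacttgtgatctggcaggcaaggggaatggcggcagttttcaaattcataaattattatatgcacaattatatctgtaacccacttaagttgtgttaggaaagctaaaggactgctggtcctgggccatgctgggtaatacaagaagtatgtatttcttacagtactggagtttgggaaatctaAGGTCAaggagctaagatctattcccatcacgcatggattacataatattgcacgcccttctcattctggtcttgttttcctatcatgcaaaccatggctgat
Pygl intron, chr12:70225747-70226046: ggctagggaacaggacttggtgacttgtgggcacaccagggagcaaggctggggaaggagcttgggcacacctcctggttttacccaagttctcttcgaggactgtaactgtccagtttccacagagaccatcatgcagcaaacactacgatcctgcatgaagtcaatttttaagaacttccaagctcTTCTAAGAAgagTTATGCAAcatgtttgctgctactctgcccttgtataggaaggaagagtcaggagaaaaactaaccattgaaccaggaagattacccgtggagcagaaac
upstream of Dpy19l1, chr9:24513303-24513602: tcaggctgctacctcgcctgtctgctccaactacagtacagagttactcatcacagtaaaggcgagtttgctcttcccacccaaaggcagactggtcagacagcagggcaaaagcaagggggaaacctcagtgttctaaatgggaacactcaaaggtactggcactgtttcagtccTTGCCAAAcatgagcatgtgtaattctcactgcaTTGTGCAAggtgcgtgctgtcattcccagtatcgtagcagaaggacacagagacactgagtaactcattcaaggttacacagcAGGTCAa

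The Acly window held an E-box and a core motif, the Tkt and Elovl6 windows a core motif, the Pdha1 window a STAT motif and a core motif, the Pygl window a STAT and a C/EBP motif next to each other, and the Dpy19l1 window 2 C/EBP motifs and a core motif. The window beside Fasn held no match to any of these letters.

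Acly, which makes cytosolic acetyl-CoA from citrate, had the largest ratio. Its intronic site (chr11:100504918-100506339, 22372 bases into the gene, ENSMUSG00000020917) stood at 0, 2.95 and 5.85 CPM in the 3 day0RT mice and at 47.2, 18.2 and 20.6 CPM in the day7C mice. The groups did not overlap, and the pooled level went from 3.72 to 28.0 CPM (7.53 times, 7 and 69 entries, 95% Poisson intervals 1.50 to 7.67 and 21.8 to 35.5 CPM, which cover counting error only). Every mouse of the other groups was also above the day0RT mice: 13.0, 45.9 and 16.4 CPM in day1C, 35.6, 25.0 and 15.6 CPM in day3C, 22.6, 15.0 and 23.3 CPM in day1CL, 91.5, 59.2 and 30.8 CPM in day3CL, and 40.0, 30.8 and 18.8 CPM in day7CL. The rule took sites low in day0RT, so it favours this separation from day0RT, here and at the sites that follow. The site was already high on day 1 and highest in day3CL. The promoter of the same gene differed far less, with pooled levels of 48.9 CPM in day0RT and 63.4 CPM in day7C, and was not among the 131.

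Elovl6, which elongates palmitate, had a site at its promoter and another 59456 bases into the gene (ENSMUSG00000041220). The intronic site (chr3:129591296-129592326) was at 7.75, 8.86 and 3.90 CPM in day0RT and at 40.4, 14.9 and 15.2 CPM in day7C, with no overlap and a pooled ratio of 3.89. It was at 17.7 to 23.0 CPM in the day1C mice and at 17.0, 19.7 and 15.4 CPM in day3CL. These groups also stood clear of day0RT, which the choice of sites favours. The promoter site (chr3:129531920-129532594) was more variable, at 17.4, 2.95 and 8.78 CPM in day0RT and at 37.7, 26.5 and 17.0 CPM in day7C, and here the groups overlapped.

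The site with the highest level of all lay between Dus1l, a tRNA-modifying enzyme gene whose start is nearest, and Fasn, the fatty acid synthase gene, whose last 323 bases it covered (chr11:120803546-120806168). It was at 40.7, 35.4 and 36.1 CPM in the day0RT mice, at 99.7, 94.4 and 59.1 CPM in day7C, and at 46.5, 131 and 80.1 CPM in day1C. All 18 mice in the cold or on CL were above all day0RT mice, with the lowest at 46.5 CPM. The choice of a site low in day0RT favours this, and it was not tested. That Fasn is the covered gene was seen after the values, because genes were assigned by their nearest start.

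A site near Srebf1 (chr11:60240328-60241800) lay 18483 bases upstream of that gene's start, in an exon of its neighbour Tom1l2. It was at 19.4, 14.8 and 15.6 CPM in day0RT and at 44.5, 41.4 and 29.6 CPM in day7C, and day3CL was as high, at 53.2, 40.4 and 34.6 CPM. The other sites nearest Srebf1 with at least 20 CPM in day7C were not chosen. Their ratios were 0.708 to 1.22, with 0.828 and 1.21 at the promoter of Srebf1. An intron of Acss2, which makes acetyl-CoA from acetate, held a further site (chr2:155540709-155541536, nearest start that of Ggt7, of the gamma-glutamyl transferase family), at 7.75, 8.86 and 11.7 CPM in day0RT and 25.6, 21.5 and 16.1 CPM in day7C. In both sites the day7C mice were all above the day0RT mice.

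Counted over a list of 22 genes of de novo lipogenesis, 4 of 71 sites with at least 20 CPM in day7C whose nearest start was a listed gene were among the 131 (5.63%), against 1.10% of all such sites. Counting also sites that overlap a listed gene, which adds those at Fasn and Acss2, the number was 6 of 79 (7.59%). That count was made after the values were seen, and the list was chosen with earlier results of these data known. Neither share was tested. The median ratio of day7C to day0RT was 1.18 over those 79 sites and 0.957 over all 11901, so the pathway's sites as a whole were shifted by much less than the sites described.

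Some genes that supply carbon or reducing power to that pathway also had sites. Pdha1 encodes a subunit of pyruvate dehydrogenase, which makes acetyl-CoA from pyruvate. A site 9026 bases upstream of it (chrX:160146857-160148021) was at 3.88, 8.86 and 3.90 CPM in day0RT, and at 24.2, 23.0 and 22.9 CPM in day1C, at 24.1, 18.1 and 21.5 CPM in day3C and at 29.6, 28.2 and 25.1 CPM in day7C. The cold mice were close to each other and all above the day0RT mice, the latter favoured by the choice of sites. The pooled ratio for day7C was 5.69. On CL the site was at 0, 15.0 and 14.8 CPM on day 1, where the zero is the mouse with 23 nuclei, and at 14.5 to 22.4 CPM on days 3 and 7. The promoter of Pdha1 was level, at 42.5 CPM in the day0RT pool and 40.2 CPM in the day7C pool.

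Tkt encodes transketolase of the pentose phosphate pathway. Its intronic site (chr14:30553042-30553790) was at 17.4, 5.91 and 13.7 CPM in day0RT, at 30.7, 39.1 and 34.3 CPM in day1C and at 39.1, 34.8 and 30.5 CPM in day7C. The mean in day1C, 34.7 ± 4.20 CPM (SD, n = 3), differed from the 34.8 ± 4.31 CPM of day7C by less than the spread between mice. All CL mice lay above the day0RT mice too, at 22.6 to 44.7 CPM, which the choice of sites favours. Pdha1 and Tkt gave 2 of 65 sites (3.08%) of a list that joins glycolysis and glucose uptake with pyruvate and pentose phosphate genes. The share of all sites with at least 20 CPM in day7C was 1.10%. No member lay nearest to a listed glycolytic enzyme or glucose transporter gene. Outside the lists, the fructose transporter gene Slc2a5 (promoter, 7.45 CPM in the day0RT pool and 22.3 CPM in the day7C pool) and the glycerol phosphate dehydrogenase gene Gpd2 (intron, 9.57 and 22.3 CPM) also held sites, and both were picked by name after their values were seen.

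For the handling of fatty acids and triglyceride, Cd36, which takes up fatty acids, had 2 intronic sites of 108 near genes of adipocyte identity (1.85%). The site at chr5:17862944-17864059 was at 11.6, 11.8 and 13.7 CPM in day0RT and at 27.0, 31.5 and 28.7 CPM in day7C, while the site at chr5:17806287-17807620 overlapped between groups, at 19.4, 14.8 and 3.90 CPM against 14.8, 33.1 and 18.8 CPM. Lpin1, a phosphatidate phosphatase, had 1 of 51 sites of triglyceride synthesis and storage (1.96%), 88054 bases downstream of its start, at 9.69, 5.91 and 9.75 CPM in day0RT and 20.2, 31.5 and 15.2 CPM in day7C. The other sites nearest Lpin1 with at least 20 CPM in day7C had ratios of 0.665 to 1.12. The share of the other lists was 0: 0 of 35 sites near genes of lipolysis, 0 of 41 of the thermogenic and beige list that includes Ucp1, 0 of 27 of fatty acid oxidation, 0 of 61 of insulin signalling, 0 of 37 of the circadian clock and 0 of 18 of cold and stress response. No site lay nearest to a gene of the marker lists of lymphocytes (0 of 12), progenitors (0 of 4), endothelium (0 of 1) or muscle (0 of 1), and no site with at least 20 CPM lay nearest to a myeloid marker. Of all sites with at least 20 CPM in day7C, 1.10% were among the 131. Shares of 1.85 and 1.96% lie near that, and 0 in lists of this size does not set them apart from it.

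**Figure D1:**
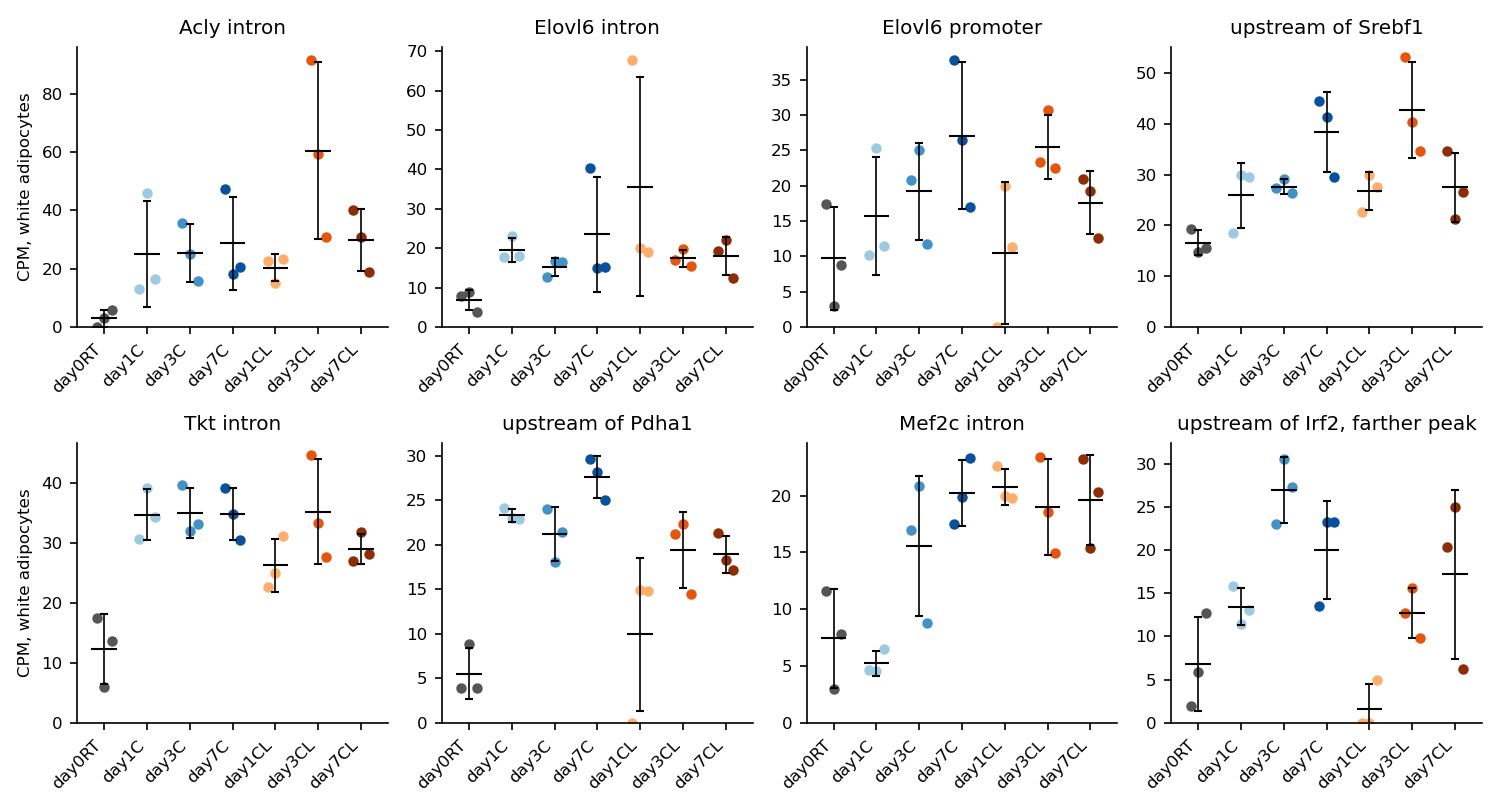
CPM of 8 sites in white adipocytes (y axis) by group (x axis), with a point per mouse, the mean as a bar and the SD as whiskers (n = 3). The Acly, Tkt and Pdha1 sites are above the day0RT mice in all cold groups, which the choice of sites favours. Mef2c stays low in day1C (4.59 to 6.54 CPM), and the Irf2 site is at 0, 0 and 4.95 CPM in day1CL. The day1CL mice had 23, 63 and 559 white nuclei.

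Beyond these, the highest levels in day7C were a site in an exon of Nabp1, a single-strand DNA-binding protein gene (27.7 CPM in the day0RT pool, 58.5 CPM in the day7C pool), a site upstream of the interferon regulatory factor gene Irf2 (19.1 and 40.6 CPM), the promoter of the inositol phosphatase gene Inpp1 (18.6 and 39.4 CPM) and a site near Tent5a, a poly(A) polymerase gene (18.6 and 37.4 CPM). Sites near Hist1h2bj (a histone, 15.4 and 32.5 CPM), in the cAMP phosphodiesterase gene Pde4d (12.2 and 32.1 CPM) and near the complex I gene Ndufs4 (12.2 and 31.7 CPM) followed. By ratio, a site 71702 bases upstream of the Hedgehog receptor gene Ptch1 followed Acly, with 1.94, 2.95 and 3.90 CPM in the day0RT mice against 21.6, 24.8 and 17.0 CPM in day7C, 6.36 times in the pools. Srgap1 (a GTPase activator of Slit-Robo signalling, 4.51 times), Fmn2 (a formin, 3.82 times), Dpy19l1 (a mannosyltransferase family gene, 3.58 times), Zfp213 (3.47 times), Prelid3a (by nearest start, the site being within Spire1, 3.37 times) and Gsdme (a gasdermin, 3.27 times) completed the largest ratios. At the line itself, the sites just inside had their nearest starts at Mllt10 and Fam210a (2.00 times, the latter site within Ldlrad4) and Tent5a (2.01 times). Those just outside were nearest Gm34302 and Yap1 (2.00 times, just under the limit) and Gpam (1.99 times).

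The 131 sites lay nearest to 125 genes, by the distance to a gene start, which reached 703079 bases, so a site named for a gene can lie far from it. Irf2, Pygl, Elovl6, Cd36, Alcam and the prostaglandin receptor gene Ptger3 each had 2, and the site nearest Abhd12b also lay within Pygl, which encodes a glycogen phosphorylase, giving that gene 3. The Pygl site with the adjoining STAT and C/EBP motifs (chr12:70225655-70226139) was at 7.75, 5.91 and 13.7 CPM in day0RT, at 25.2, 30.6 and 19.5 CPM in day3C and at 27.0, 18.2 and 26.9 CPM in day7C. The promoter of Ptger3 (chr3:157566630-157568119), a receptor that restrains lipolysis, was at 17.4, 8.86 and 15.6 CPM in day0RT and at 39.1, 33.1 and 22.4 CPM in day7C. Other sites near these genes with at least 20 CPM in day7C were not chosen: their ratios were 0.873 to 1.59 at Cd36, while 1 site each near Elovl6 (1.94), Irf2 (1.93), Ptger3 (1.82) and Alcam (1.81) came close to the limit.

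The members were mostly distal. Introns held 56 (42.7%), intergenic DNA 53 (40.5%), promoters, meaning within 2000 bases of a start, 14 (10.7%), and exons 8 (6.11%). Of all sites with at least 20 CPM in day7C, 48.4% were promoters. Of those promoters 0.243% were chosen, against 1.32% of exonic, 1.86% of intronic and 2.10% of intergenic sites. The median ratio of day7C to day0RT also differed by place, at 0.930 for promoters and 0.993 for intergenic sites, and taking the fold relative to that median, an alternative added after seeing the data, gave 145 sites that included all 131. The median distance to the nearest start was 31924 bases, against 2778 for the sites with at least 20 CPM, and 55 members were more than 50000 bases away. Members were shorter (median 970 against 1124 bases) and had a lower GC content (46.2 against 54.1%).

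Motif matches in the central 300 bases are a description and not binding. Outside promoters, the C/EBP motif, named for factors of the adipocyte program, matched 36 of 117 members (30.8%), against 24.0% of the other 6025 sites of at least 20 CPM outside promoters, and the STAT motif 22 (18.8%), against 11.5%. The NF-Y motif CCAAT matched 42.7 against 35.4%, and the EBF motif CCCNNGGG 8.55 against 15.3%. The E-box (6.84 against 6.24%) and the core motif of nuclear receptors (23.1 against 22.1%) were at like shares. So were the other motifs scanned that matched any member: SREBP (1.71 against 1.59%), the glucocorticoid receptor (10.3 against 10.1%), AP-1 (8.55 against 8.86%) and MEF2 (0.855 against 0.763%). ERR, CREB, NFI and the PPAR-RXR direct repeat matched 0 members, against 0.349, 0.548, 0.0830 and 0.0664%. Over all 189598 sites the C/EBP motif matched 18.5% and the STAT motif 10.9%. GC content differs between these sets, and its part in the shares was not tested.

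Within each mouse the 131 sites were summed, and white adipocytes stood at 1338 ± 111 CPM (SD, n = 3) in day0RT and 3324 ± 237 CPM in day7C. The choice of sites fixes that gap in part. When the sites were chosen again without a mouse, the ratio of day7C to day0RT in the mouse left out was 1.47 to 2.01, against 2.36 to 2.51 in the mice used for the choice. Each of these ratios still uses the 3 mice of the other group, which took part in the choice, so that a ratio above 1 is favoured in the left-out mouse as well. The lowest, 1.47, was for the sites chosen without day0RT mouse 3, of which there were 296. Of the 131, 118 (90.1%) had all day7C mice above all day0RT mice, which the rule favours, against 7.08% of the 11901 sites.

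**Figure D2:**
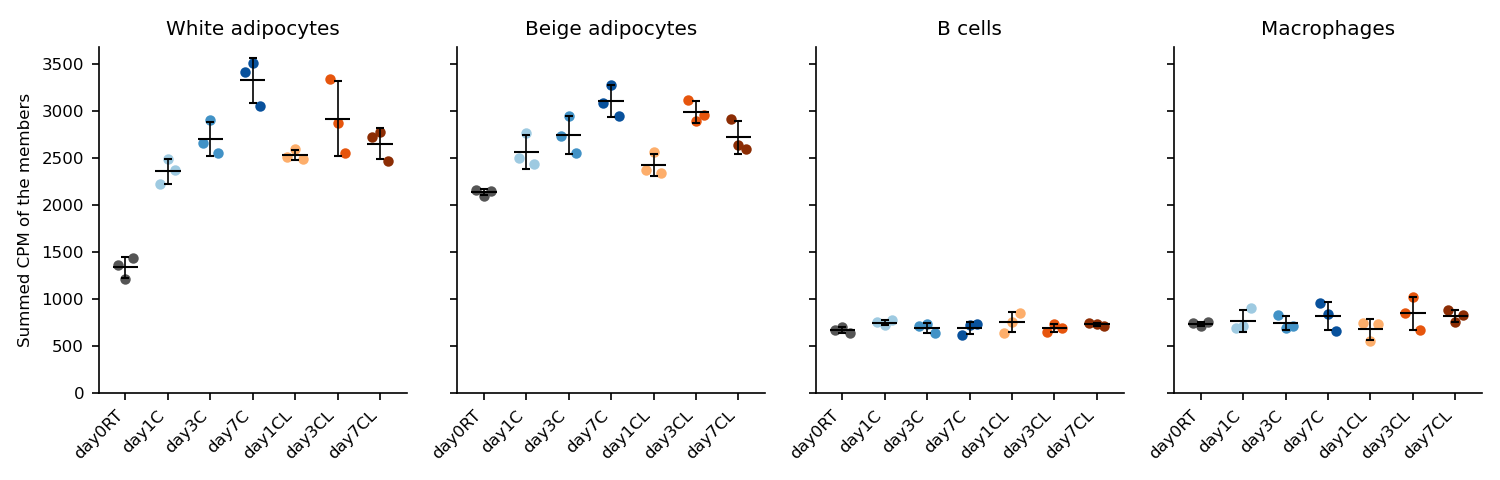
Summed CPM of the 131 sites (y axis) in each mouse by group (x axis) in white adipocytes, beige adipocytes, B cells and macrophages, with the mean as a bar and the SD as whiskers (n = 3). White nuclei go from 1338 ± 111 CPM in day0RT to 3324 ± 237 CPM in day7C, beige nuclei from 2134 ± 32.2 to 3101 ± 168 CPM, and the means of B cells and macrophages are 671 to 750 and 676 to 846 CPM.

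In the other groups the mean summed level lay between those of day0RT and day7C, which the rule set apart. The summed level was 2357 ± 132 CPM in day1C and 2702 ± 180 CPM in day3C (SD, n = 3 each), and 2531 ± 54.9, 2918 ± 397 and 2651 ± 164 CPM on days 1, 3 and 7 of CL. No mouse of these groups overlapped the day0RT mice, of which the highest was at 1434 CPM, while a day3CL mouse, at 3336 CPM, was above the lowest day7C mouse, at 3056 CPM. These ratios to day0RT, 1.76 and 2.02 in the cold and 1.89, 2.18 and 1.98 on CL, all share the day0RT mice that helped to choose the sites, so they are given without a test.

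Site by site, 123 members were above day0RT in day1C, 128 in day3C, 119 in day1CL, 130 in day3CL and 131 in day7CL, by pooled level. The rule favours these counts, since it took sites that were low in day0RT. At least 2 times day0RT were 29 members in day1C, 49 in day3C, 51 in day1CL, 59 in day3CL and 56 in day7CL. Of all 11901 sites with at least 20 CPM in day7C, 45 (0.378%), 59 (0.496%), 83 (0.697%), 86 (0.723%) and 69 (0.58%) did so, in the same order of groups. These percentages include the members themselves, and all share day0RT. In 14 members the level was at least 2 times day0RT in every other group: Acly, the Elovl6 intron, Tkt, Pdha1, Ptch1, Srgap1, Fmn2, Dpy19l1, Zfp213, Gsdme, Cstb, Frmd8, Cdkn2b and Speer4f1. In 37 it was so in none, among them the sites near Inpp1, Tent5a and Irf2 with high levels in day7C.

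Most members were higher on the later days of cold. Of the 131, 94 were higher in day3C than in day1C and 114 higher in day7C than in day3C, the latter with a group used for the choice. In the edgeR test of day3C against day1C given below, 21134 of all 42340 sites had a positive log2 fold change. The highest of the 7 groups was day7C for 70 members, day1CL for 21, day3CL for 15, day3C for 12, day7CL for 8 and day1C for 5, where the rule favours day7C. On CL the days differed in both directions, with 74 higher in day3CL than in day1CL and 70 higher in day7CL than in day3CL. In day1C, 8 members lay below day0RT (near Mef2c, Ankrd46, Myc, Alcam, Gtdc1, Csn2, Trim24 and Hpgds), and in day1CL 12 did, with both Irf2 sites, Pygl, Aatf and Cradd among them.

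**Figure D3:**
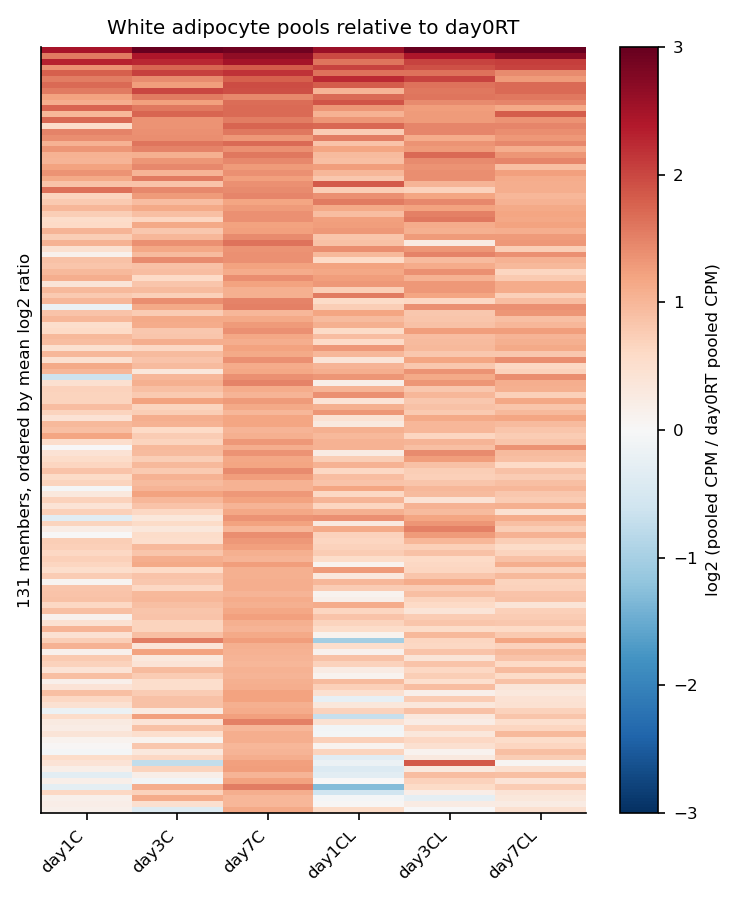
Pooled CPM of the 131 sites in white adipocytes (rows, ordered by their mean) relative to day0RT on a log2 scale (colour) in the 6 other groups (columns). Day7C is above day0RT in all rows by the choice of sites, and the blue cells are concentrated in day1C (8 sites below day0RT) and day1CL (12 sites).

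The 15 mice of day1C, day3C, day1CL, day3CL and day7CL took no part in the choice, and contrasts among them were tested with edgeR over 42340 sites, which included all 131, with Benjamini-Hochberg adjustment. Together 4 contrasts gave 22 calls for 20 members, and 18 of these calls came from CL against cold on day 3.

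Between day 1 and day 3 of cold, 1 member rose and 0 fell, with 0.0449% of all tested sites called higher. The member was a site 46861 bases upstream of the vomeronasal receptor gene Vmn1r3 (chr4:3231909-3232530), at 17.7, 11.5 and 11.4 CPM in day1C and 33.1, 29.2 and 24.4 CPM in day3C (log2 fold change 1.09, SE 0.27, edgeR adjusted p = 0.0366). The median log2 fold change was 0.21 over the members and -0.00 over all sites. Positive changes were found in 94 members, against 21134 of all 42340 sites, and 28 members were under an unadjusted p of 0.05, against 4084 of all sites. DESeq2 called 0 members, and the call was lost when day1C mouse 1, 2 or 3, day3C mouse 1 or 2, day1CL mouse 2, day3CL mouse 1 or day7CL mouse 3 was left out of the fit (0 members). Without day3C mouse 3 there were 3 members called and without day7CL mouse 1 there were 2.

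On day 1, 2 members rose under CL relative to cold and 0 fell (0.0779% of all sites called higher). The site in an intron of Mef2c, a transcription factor gene (chr13:83603424-83604671), was at 4.65, 4.59 and 6.54 CPM in day1C and at 22.6, 20.0 and 19.8 CPM in day1CL (log2 fold change 1.90, SE 0.47, edgeR adjusted p = 0.0307). With 11.6, 2.95 and 7.80 CPM in day0RT, it was not above room temperature after 1 day of cold and was at 17.0, 20.8 and 8.78 CPM on day 3. The site near the prostaglandin D synthase gene Hpgds, in an intron of Smarcad1 (chr6:65112837-65113903), was at 5.58, 11.5 and 8.18 CPM in day1C and at 45.3, 15.0 and 25.4 CPM in day1CL (log2 fold change 1.68, SE 0.41, edgeR adjusted p = 0.0255). The 3 day1CL mice had 23, 63 and 559 white nuclei, and mouse 3 gave 85.3% of the entries. In mouse 1 the 22.6 CPM of the Mef2c site is 1 entry, so the day1CL levels of both sites rest mostly on mouse 3. The median over members was 0.04, against -0.05 over all sites, 31 members were under an unadjusted p of 0.05 (4618 of all 42340 sites), and DESeq2 called 0 members. No member was called without day1C mouse 1 or 3 or day1CL mouse 3 (0 each), and 1 was called without day1C mouse 2 or day1CL mouse 2.

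On day 3, 12 members rose under CL relative to cold (1.12% of all sites called higher) and 6 fell (0.713% called lower), with 778 sites called in all. The site with the largest change (chr11:84405484-84406159) had its nearest start at Aatf, a transcription factor gene that counters apoptosis. It lay 107701 bases downstream of that start and outside the gene, so the gene it acts on is not known. The site was at 4.92, 6.95 and 7.81 CPM in day3C and at 14.9, 40.7 and 29.0 CPM in day3CL (log2 fold change 2.57, SE 0.24, edgeR adjusted p = 1.11e-21). DESeq2 did not call it (DESeq2 adjusted p = 0.117). Of the 6 lipogenic sites, 4 were among those that rose: the Acss2 intron, at 10.9, 22.2 and 12.7 CPM in day3C and 25.5, 31.8 and 24.8 CPM in day3CL (1.18, SE 0.20, edgeR adjusted p = 7.55e-06), the Acly intron (0.80, SE 0.15, edgeR adjusted p = 4.58e-05), the site near Srebf1 (0.54, SE 0.16, edgeR adjusted p = 0.0350) and the site at Fasn (0.45, SE 0.13, edgeR adjusted p = 0.0319). Of these 4, the Acss2 and Fasn sites count as lipogenic by overlap and not by nearest start. In the Acss2, Srebf1 and Fasn sites all day3CL mice were above all day3C mice, and in Acly 1 day3CL mouse, at 30.8 CPM, was below the highest day3C mouse, at 35.6 CPM.

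The other sites that rose were near Prss16, Immp2l, Hpgds, Gtdc1, Rassf2, Pde4d and Car14, with log2 fold changes of 0.64 to 1.02. Of the 6 that fell, the site in an intron of Cradd, an adaptor of caspase signalling (chr10:95254399-95255394), changed most, from 20.2, 27.8 and 23.4 CPM in day3C to 14.9, 7.36 and 8.41 CPM in day3CL (log2 fold change -1.36, SE 0.25, edgeR adjusted p = 3.55e-05). The Pygl site shown above (-0.88, SE 0.21, edgeR adjusted p = 0.00515), the farther Irf2 site (-0.88, SE 0.21, edgeR adjusted p = 0.00539), and sites near Atp5g3 (-1.06), Alcam (-0.72) and Gulp1 (-0.73) also fell. Over all tested sites of the lipogenesis list, 13 of 170 rose and 3 fell, with Scd1, Scd2 and Insig1 among the genes that had sites rising, while 4 of 174 of the thermogenic list rose and 2 fell and 0 of 98 of the lipolysis list were called. Insulin signalling had 3 of 229 rising and 11 falling, against 1.12% of all sites called higher and 0.713% lower. The circadian clock list had 1 of 106 rising and 6 falling, all near the single gene Bhlhe40. Between CL and cold on day 1, 0 of 170 sites of the lipogenesis list rose and 5 fell, all near the single gene Scd1. Of all 42340 sites, 33 were called higher and 65 lower in that contrast. The list's median log2 fold change was -0.19 there, against -0.05 over all sites. That contrast had 1 site called in all without day1CL mouse 3 and 3 without day1C mouse 1.

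Many of these day 3 calls depended on 1 library. Without day3CL mouse 2, which gave 56.5% of the entries of its group, 3 members and 63 sites in all were called, and all 4 lipogenic calls were lost. There were 9 members called without day3C mouse 1, 10 without day3C mouse 3 and 11 without day3CL mouse 3. The calls near Srebf1 and Fasn were also lost without any single day3C mouse, without day3CL mouse 1, without day1C mouse 2 or 3 and with library totals in place of TMM factors, and the Acss2 call without day3C mouse 1. DESeq2 called 0 members and 7 sites, 49 members were under an unadjusted p of 0.05 in edgeR (5341 of all 42340 sites), and the median log2 fold change over the members was 0.05, against -0.00 over all sites.

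**Figure D4:**
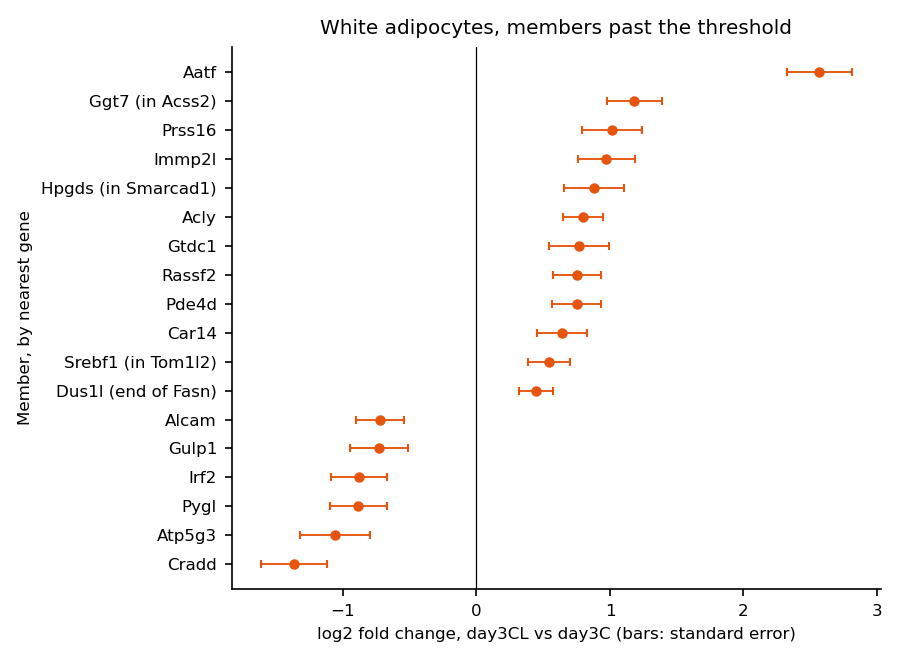
Log2 fold change between day3CL and day3C (x axis) from edgeR, for the 18 sites past the threshold in white adipocytes (y axis, by nearest gene). The standard error drawn is the absolute change divided by the square root of the F of the test. The 12 sites that rose range from 0.45 (at the end of Fasn) to 2.57 (Aatf), and the 6 that fell reach -1.36 (Cradd).

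Between day 1 and day 7 of CL, 1 member rose and 0 fell (0.0921% of all sites called higher). The site, 19625 bases upstream of Irf2 (chr8:46719756-46720458), was at 0, 0 and 4.95 CPM in day1CL and at 20.3, 25.0 and 6.26 CPM in day7CL (log2 fold change 2.24, SE 0.46, edgeR adjusted p = 0.00341). Its levels in the cold were 15.8, 11.5 and 13.1 CPM on day 1 and 23.0, 30.6 and 27.3 CPM on day 3. The nearer Irf2 site (chr8:46732215-46733244) was also lower in day1CL, with 0, 15.0 and 12.7 CPM against 32.5, 29.9 and 22.9 CPM in day1C, and was not called. The 3 day1CL mice had 23, 63 and 559 white nuclei. In mouse 1 a single entry is 22.6 CPM, so the zeros there say little and the day1CL levels rest mostly on mouse 3. The call was lost without day1CL mouse 3, which left 0 members, and without day7CL mouse 1, also 0, and DESeq2 called 0 members. Without day7CL mouse 3 there were 2 members called. The median log2 fold change was 0.16 over the members and 0.05 over all sites, and 40 members were under an unadjusted p of 0.05 (3792 of all 42340 sites).

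Beige adipocyte nuclei, which carry the thermogenic program, were not used in the choice but came from the same mice. In them the summed level of the 131 sites was 2134 ± 32.2 CPM in day0RT (SD, n = 3, 375 entries), with all 3 mice above all white libraries of that group, and 3101 ± 168 CPM in day7C, near the 3324 ± 237 CPM of white nuclei. It was 2563 ± 179 CPM in day1C, 2743 ± 199 CPM in day3C and 2423 ± 120, 2987 ± 112 and 2717 ± 173 CPM on days 1, 3 and 7 of CL. The ratio of day7C to day0RT was 1.45 in beige and 2.48 in white nuclei, and the white ratio is raised by the choice of sites. The choice took sites low in white day0RT, so it also favours beige above white in day0RT. There the other sites with at least 20 CPM in day7C summed to 380453 to 392099 CPM in the beige libraries and 355368 to 388664 CPM in the white ones.

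Over all groups pooled the level in beige was close to that in white nuclei, with a median ratio of 1.04 per site. The 2 pools mix the groups differently. Beige nuclei had 174714 entries in day0RT and 1177922 in day7C, and white nuclei 1880212 and 2462025, so this ratio does not hold within each group. The Elovl6 sites were the only ones at 2 times white or more, the intron at 51.8 against 17.1 CPM and the promoter at 42.8 against 20.3 CPM. In beige nuclei the Elovl6 intron was at 70.0, 51.2 and 14.4 CPM in day0RT, from 8 entries in all, of which the latter mice gave 1 each. At 0.5 times or less were 8 sites, near Fndc3b, Irf2, Alcam, Tlr4, Gulp1, Sh2d4b, Unc5a and Gsdme, of which Gsdme was lowest (5.70 against 19.1 CPM).

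Of 4633 sites that passed the count filter in beige nuclei, 18 were members (282 and 2 with at least 5 nuclei per library, which kept all mice). With 1 day1CL mouse left in the beige fit, a site could pass through 1 library, so these 18 need not be well covered throughout. Between day0RT and day7C edgeR called 0 members (0.0216% of all sites called) and DESeq2 0, and 6 members were under an unadjusted p of 0.05 (355 of all 4633 sites). The median log2 fold change was 0.80 over these 18 and 0.11 over all sites, and 12 of the 18 were positive, against 2680 of the 4633. With library totals these medians were 0.26 and -0.42, and without day0RT mouse 1 the median over 25 members tested was 1.57, against 0.29 over all sites. The strongest was the site upstream of Dpy19l1, at 11.7, 0 and 14.4 CPM in day0RT and 62.6, 57.2 and 37.0 CPM in day7C (log2 fold change 2.62, SE 0.71, edgeR adjusted p = 0.191). The Acly intron was at 11.7, 0 and 14.4 CPM in day0RT and at 62.6, 12.3 and 41.1 CPM in day7C (2.39, SE 0.74, edgeR adjusted p = 0.329), with overlap between the groups. The site near Srebf1 was at 0 in all 3 day0RT mice, where 0 of 174714 entries allows up to 17.2 CPM (3 entries in the pool), and at 22.4, 32.7 and 24.7 CPM in day7C. Between day0RT and day7CL edgeR also called 0 of the 18 (0.0216% of all sites called), with 5 under an unadjusted p of 0.05 (302 of all 4633 sites), 0 by DESeq2 and a median of 0.44 against 0.12. With library totals in place of TMM factors that median became -0.16 against -0.48, so that its sign depends on the scaling. The gap to all sites was 0.32 under both, but such a change of scaling shifts all sites nearly alike and could not alter it.

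In B cells, macrophages and progenitors the sites had lower levels, which differed little between groups. Their summed level was 671 to 750 CPM in the means of B cells, 676 to 846 CPM in macrophages and 861 to 1138 CPM in the progenitors annotated as APC1, with ratios to day0RT of 1.03 to 1.12, 0.919 to 1.15 and 0.875 to 1.16. In B cells edgeR called 0 of 14 members tested between day0RT and day7C (0.0139% of 21628 sites called), 1 was under an unadjusted p of 0.05 (1686 of all 21628 sites), DESeq2 called 0, and the median log2 fold change was -0.04. In macrophages 451 sites were deep enough to test, none of them a member (0% of sites called).

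Beige adipocytes were set aside here, since their pool over all groups was close to that of white. In 62 members (47.3%) every other cell type was under 0.5 times the white level over all groups, against 17.0% of the 11901 sites with at least 20 CPM. In 48 (36.6%) some type other than beige reached the white level, against 69.0%, and these shares carry no test because the rule used the white level. Nuclei annotated as vascular smooth muscle were the highest type after white and beige adipocytes were set aside for 43 members (32.8%). This pool was small, with at most 57 nuclei in a mouse, and there is no share over all sites to set beside it. The promoter of Rassf2, a Ras-association domain gene, was at 107 CPM in B cells against 22.7 CPM in white adipocytes. A site within Ppm1h, whose nearest start was that of Mon2 at 181385 bases, was at 82.8 CPM in the progenitors annotated as APC2 against 21.2 CPM in white adipocytes.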

How the data were processed

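The members and gene lists were chosen with earlier results of these data known. The authors merged 2 runs, aligned reads with Bowtie2 to mm10 (mapping quality at least 30), removed duplicates, mitochondrial reads, barcodes under 1000 reads and, with Scrublet, doublets, and called peaks with MACS2 per cluster. The deposited matrix holds binary counts (65588856 entries of 1, 145 stored zeros), so several reads in a site count as 1, which flattens differences at open sites. Deposited annotation gave mouse, group and cell type.

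Entries were summed per mouse and cell type (Python 3.11.15, GENCODE M21) where at least 10 nuclei were present, which dropped 2 day1CL mice from the beige fit (19 libraries). edgeR 4.0.16 (R 4.3.3, quasi-likelihood, TMM, filterByExpr with minimum count 10, total 15, proportion 0.7) was run two-sided over all peaks and checked on simulated data; adjusted p under 0.05 was the threshold. DESeq2 1.42.0 was the other tool. SE is the absolute log2 fold change divided by the square root of the F of the edgeR test. The common dispersion of the white edgeR fit was low, at 0.00223. How far SE and p reflect the spread between mice was not tested. Mice are separate animals. Mouse numbers were not paired in the main fits. Over white libraries, 30 same-number pairs correlated at -0.0554 to 0.102, with 1 over 0.1, and 60 pairs of different numbers at -0.0681 to 0.0699. Low counts limit these correlations, and a batch shared by mouse number was not tested.

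Sites named were the 10 highest in day7C, the 10 largest ratios, those nearest a listed gene, those of genes with most sites, the 3 smallest p per direction and contrast, and 3 on either side of the fold limit. The text says where others were picked after values were seen.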

Additional observations from a re-analysis of the deposited data

How the results depend on the processing

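The number of sites chosen depends on the limits. A minimum of 10 or 40 CPM gave 1446 or 3 sites, a fold of 1.5 or 3 gave 644 or 15, and leaving out 1 mouse gave 129 to 314 (296 without day0RT mouse 3, 314 without day7C mouse 3), of which 91 to 108 were among the 131. The mean of the mice (196), deeper nuclei (153), TMM factors (111) and beige nuclei pooled with white (174) stayed within 1.5 times in number, but shared 114, 104, 111 and 78 sites with the 131.

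Members called in day3C against day1C (1) were 0 with DESeq2, with no filter and with deeper nuclei, 2 with all mice in the fit and with library totals, and 0 to 3 with a mouse left out. In day1CL against day1C (2) they were 0 with DESeq2, no filter and deeper nuclei, and 0 to 2 with a mouse left out. In day3CL against day3C (18) they were 0 with DESeq2, 6 with no filter and 3 to 18 with a mouse left out (9, 12 and 10 without day3C mouse 1, 2 and 3, 3 and 11 without day3CL mouse 2 and 3). In day7CL against day1CL (1) they were 0 with DESeq2 and deeper nuclei, 2 with all mice, and 0 to 2 with a mouse left out. The mouse number as a block gave 1, 2, 12 and 0 in these contrasts, which removes the Irf2 call of day7CL against day1CL. In day3CL against day3C the block left 499 sites called in all, against 778 without it. The experiments were run in batches that the sources used here do not assign to mice. Same-numbered mice of different groups correlated weakly, at -0.0554 to 0.102 over shallow libraries, and a batch shared by mouse number was not tested. Over 484 refits of the 22 called sites, 353 kept the call, 131 lost it and 0 reversed, and the cause was not tested. Many of these refits left out a mouse of neither group compared, and a minimum of 30 nuclei gave the same fit as leaving out day1CL mouse 1. The number kept therefore overstates how stable the calls are to the mice compared. DESeq2 lost every call. Beige, B cell and macrophage counts were 0 throughout. Depth limits beige and macrophage tests, where 18 and 0 members could be tested.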
